A study of Homo sapiens with 6 samples.

Results

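The genes described here are 36 genes of the unfolded protein response and the integrated stress response, measured in VCaP cells, a human line derived from prostate cancer, positive for the TMPRSS2/ERG fusion and, per the design text, with high basal SOX9. They were chosen by name and fall into 4 groups by role: 14 chaperones and folding enzymes of the endoplasmic reticulum (ER), 4 stress sensors and factors, 7 genes of ER-associated degradation (ERAD), and 11 genes that hold ATF4 and genes it drives. For a gene with several probe sets, the one with the highest mean signal over all arrays stood for it. Of the 36, 35 had a probe set of their own among the 19775 genes that had one, SYVN1 being the exception, and 34 were among the 12431 genes tested. The gene left out by the filter on dim probe sets was CHAC1, whose signal was 30.4 and 42.9 under siRNA A, 15.9 and 8.4 under siRNA B and 37.2 and 6.8 under control siRNA, around the filter level of 21.96.

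Cells were transfected with SOX9 siRNA A, with the independent SOX9 siRNA B or with a non-target control siRNA, and total RNA was taken 72 h later and hybridised to Affymetrix U133 Plus 2.0 arrays. Each of the 3 groups held 2 arrays, biological duplicates per the design text, 6 in all. All groups share the cell line, its fusion and a transfection, and untransfected cells were not analysed here. SOX9 is a transcription factor, and the comparison asks what its knockdown does to the transcriptome.

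The ER folds membrane and secreted proteins, and its lumen holds chaperones and enzymes that make disulphide bonds. When unfolded proteins accumulate, the sensors IRE1 (gene ERN1), ATF6 and PERK (gene EIF2AK3) are activated. IRE1 splices the XBP1 message, so that it encodes an active transcription factor, and cleaved ATF6 enters the nucleus, and together these raise chaperone and ERAD genes. PERK phosphorylates eIF2-alpha, which lowers protein synthesis at large while ATF4 is translated more. ATF4 then raises genes of amino acid supply and of the stress response, and kinases that sense amino acid shortage, viral RNA or haem shortage also reach it without the ER. Prostate cells secrete much protein, and the androgen receptor is known to act on this pathway in prostate cancer.

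The deposited signals were compared as log2(signal + 16), so a fold change understates that of dim genes, and a gene was called at a limma adjusted p below 0.05. SOX9 itself had signals of 1107.9 and 672.6 under siRNA A and 609.3 and 333.5 under siRNA B, against 1469.3 and 1126.2 under control siRNA. The SOX9 siRNA arrays were all lower than either control, replicate 1 of siRNA A by a small margin (1107.9 against 1126.2). In a second SOX9 probe set that array had 860.8, against 1557.9 and 1269.6 under control siRNA. The knockdown was weaker with siRNA A, at a log2 fold change of -0.57, than with siRNA B, at -1.48. For both siRNAs SOX9 was at -1.02 (SE 0.29, limma adjusted p = 0.434, and 0.00189 with the replicate number as a block). The block called 3.53% of all tested genes for both siRNAs, 1.79% for siRNA A and 2.9% between the siRNAs. Its p-values can be too small. The 2%-trimmed mean signal of the arrays ran from 144 to 190, 3'/5' signal ratios were 1.04 to 1.19 for GAPDH and 2.91 to 3.79 for ACTB, the highest ACTB ratios being those of the siRNA A arrays. Correlations between arrays over the tested genes ran from 0.943 to 0.988, so no 2 arrays were identical. The arrays did not all group by siRNA. Replicate 1 of siRNA A correlated at 0.986 and 0.988 with the controls and at 0.973 with its own duplicate. Replicate 2 of siRNA B correlated at 0.969 with replicate 2 of siRNA A and at 0.965 with its own duplicate. Of 9 prostate and VCaP markers 7 had a probe set of their own and were tested, at signals from 102 to 17513, and of 8 markers of other cell types with a probe set, 2 were tested, COL1A1 and PECAM1, while the other 6 stayed at or below 52.1. COL1A1, a fibroblast collagen, had 82.5 and 30.9 under siRNA A and 222.9 and 195.7 under siRNA B, against 135.4 and 115 under control siRNA. It was thus at -1.05 for siRNA A (limma adjusted p = 0.744, and 0.0102 with the block) and at -1.73 for siRNA A minus siRNA B (0.0602, and 1.8e-07 with the block), and its part in the differences between the siRNAs was not tested. Precision is limited by the number of arrays.

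Across the 34 tested genes 0 were called for both siRNAs against control, where 5 of all 12431 genes were called (0.0402%). None was called for siRNA A (0.0161% of all genes), for siRNA B (0.185%) or between siRNA A and siRNA B (0.0965%). At an unadjusted p below 0.05, limma had 2 of the 34 for both siRNAs, MANF and HYOU1, against 964 of all genes (7.75%). It had 3 for siRNA A, the same genes and HSPA5 (4.69% of all genes), DDIT3 for siRNA B (11.3%) and 2 between the siRNAs, EDEM1 and PSAT1 (8.25%). With the replicate number as a block the calls over all genes were 3.53% for both siRNAs, 1.79% for siRNA A, 5.94% for siRNA B and 2.9% between the siRNAs, and among the 34 they were 0, 0, 0 and 1 in the same order, the last being PSAT1. What follows is therefore a description of levels, and a direction given for a gene is that of its group means. A gene that was not called is not shown to be unchanged, since the test called 2.28% of simulated 1.5-fold changes for both siRNAs. Of the 34 genes 25 had a positive log2 fold change for both siRNAs (73.5%, median 0.22), against 44.9% of all tested genes (median -0.04). The sign differed by role, as the plot of all fold changes shows: 14 of 14 chaperones and 5 of 6 ERAD genes were positive, and 4 of 10 ATF4-driven genes were. The chaperone values leaned on 1 array: control replicate 1 was the lowest array for 14 of 14. Without it the chaperone median went from 0.34 to 0.046, with 11 of 14 positive.

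**Figure D1:**
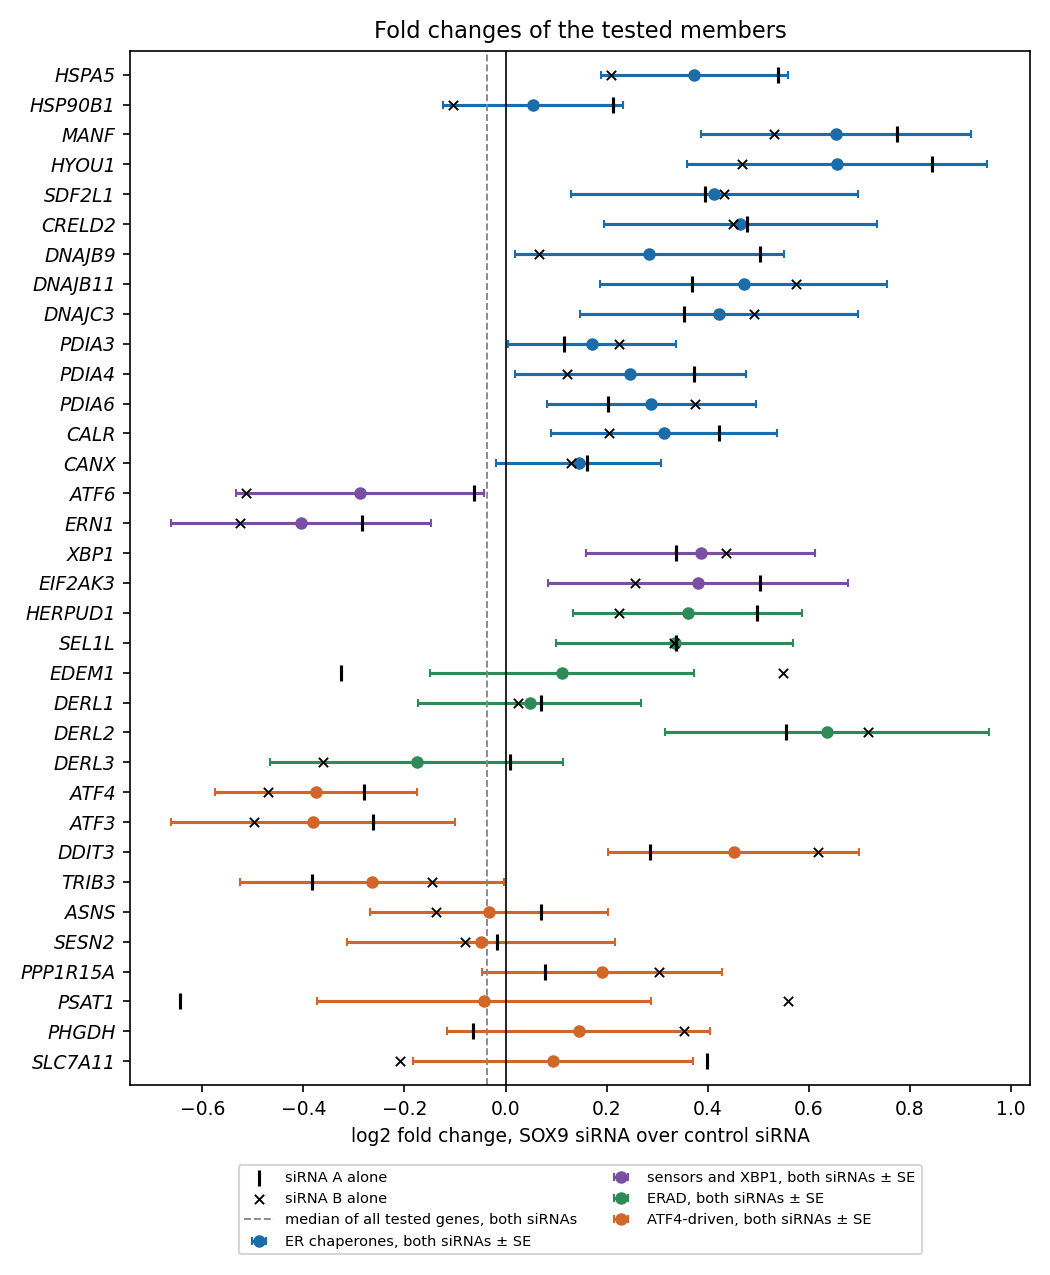
The log2 fold change of each tested gene, SOX9 siRNA over control siRNA, for both siRNAs together (coloured points, bars are the SE) and for siRNA A (vertical tick) and siRNA B (cross) alone, with colours for the 4 groups of genes and a dashed line at the median of all tested genes, -0.04. The 14 chaperones lie to the right of 0, from 0.05 to 0.66, and the 10 ATF4-driven genes lie on both sides, from -0.38 to 0.45. For EDEM1 and PSAT1 the siRNA A and siRNA B marks lie farthest apart, on opposite sides of 0.

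The ER chaperones and folding enzymes had higher mean signals with SOX9 siRNA than with control siRNA in 14 of 14 genes. Their median log2 fold change was 0.34 for both siRNAs, 0.38 for siRNA A and 0.30 for siRNA B, where 13 of 14 were positive. SOX9 itself was at -0.57 for siRNA A and -1.48 for siRNA B. The chaperone median was thus larger with the siRNA that lowered SOX9 less, and whether chaperone levels follow SOX9 was not tested. The largest differences were those of MANF and HYOU1, and HSP90B1 was close to 0. No member passed the test, and 0 of the 14 had all 4 SOX9 siRNA arrays above both control arrays, against 569 of all tested genes (4.58%). In bulk RNA, a higher level in some of the cells and a smaller difference in all of them cannot be told apart.

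HSPA5, the main ER chaperone of the Hsp70 family, known as BiP, which also holds the sensors inactive, had signals of 7509.5 and 8714.2 under siRNA A and 5973.8 and 6930.6 under siRNA B, against 4399.7 and 7034.8 under control siRNA. Both siRNA A arrays lay above both controls, while both siRNA B arrays lay between the controls. The log2 fold change was 0.37 for both siRNAs (SE 0.18, limma adjusted p = 0.659), 0.54 for siRNA A and 0.21 for siRNA B. A second HSPA5 probe set gave 0.53 for siRNA A and -0.07 for siRNA B, again with the siRNA A arrays above both controls. HYOU1, an ER chaperone that acts as an exchange factor for HSPA5, had 437 and 702.8 under siRNA A and 351 and 511.2 under siRNA B, against 224.6 and 404.1 under control siRNA. Replicate 1 of siRNA B was the 1 SOX9 siRNA array below the higher control. Its log2 fold change was 0.66 (SE 0.30, limma adjusted p = 0.631), with 0.84 for siRNA A and 0.47 for siRNA B.

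MANF, a secreted ER protein that binds HSPA5, had 2292 and 2575.4 under siRNA A and 1825.5 and 2301 under siRNA B, against 973.1 and 2048.3 under control siRNA. Here 3 of 4 SOX9 siRNA arrays lay above both controls, which differed from each other by 1.06 on the log2 scale. For both siRNAs the log2 fold change was 0.65 (SE 0.27, limma adjusted p = 0.574). CRELD2, an ER protein with disulphide isomerase activity, had 659.7 and 796.5 under siRNA A and 707.7 and 715.1 under siRNA B, against 384.9 and 690.1 under control siRNA. Again 3 of 4 SOX9 siRNA arrays were above both controls, and the lower control stood apart from the other 5 arrays. The fitted log2 fold change was 0.46 (SE 0.27, limma adjusted p = 0.725). HSP90B1, the Hsp90 of the ER, known as GRP94, had 5469 and 5639 under siRNA A and 4710.4 and 4219.8 under siRNA B, against 4026.4 and 5700 under control siRNA. All 4 SOX9 siRNA arrays lay between the controls, and the log2 fold change was 0.05 for both siRNAs (SE 0.18, limma adjusted p = 0.973), 0.21 for siRNA A and -0.10 for siRNA B. HSP90B1, PDIA6, CALR and DERL3 were represented by probe sets of a type that can also hybridise to related transcripts, and the other HSP90B1 probe set, of the same type, was at -0.35 for both siRNAs.

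The J-domain co-chaperones of HSPA5 had log2 fold changes of 0.47 for DNAJB11, 0.42 for DNAJC3, which also inhibits PERK, and 0.28 for DNAJB9. SDF2L1, which works with DNAJB11, was at 0.41. The protein disulphide isomerases were at 0.29 for PDIA6, 0.25 for PDIA4 and 0.17 for PDIA3. The lectin chaperones of the calnexin cycle were at 0.31 for the soluble calreticulin (CALR) and 0.14 for the membrane-bound calnexin (CANX). These 9 genes had an SE between 0.16 and 0.28 and a limma adjusted p between 0.738 and 0.897. Another 19 probe sets belonged to these chaperone genes, and 16 of the 18 above the filter had a positive log2 fold change.

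**Figure D2:**
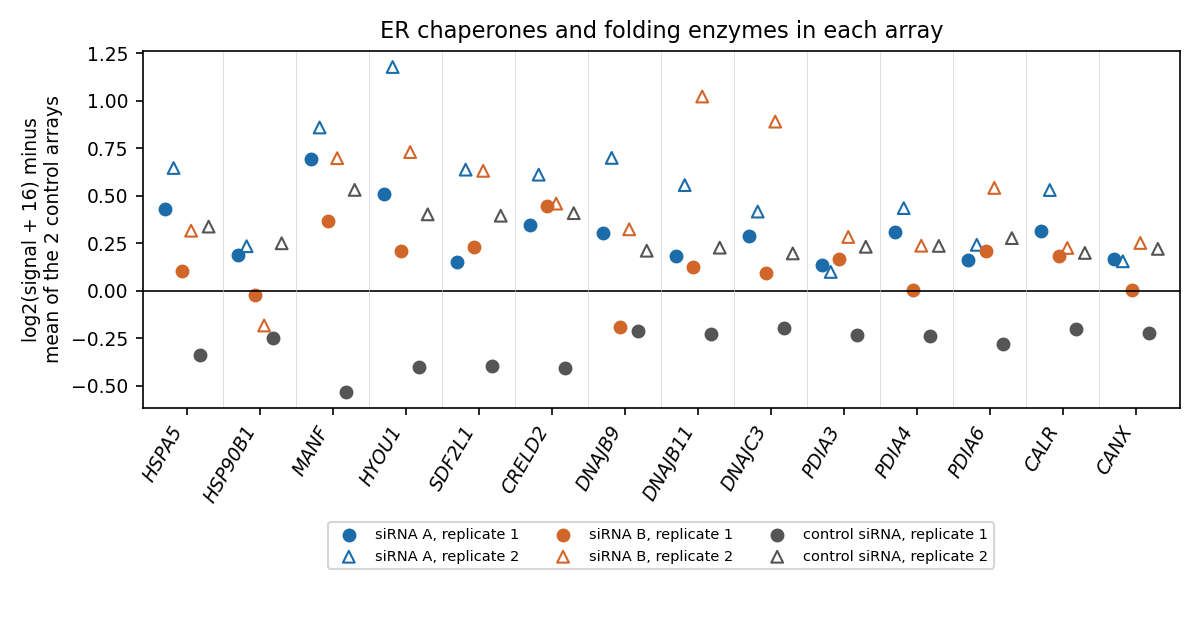
Each ER chaperone and folding enzyme in each array as log2(signal + 16) minus the mean of the 2 control arrays, with siRNA A in blue, siRNA B in orange and control siRNA in grey, filled circles for replicate 1 and open triangles for replicate 2. Control replicate 1 is the lowest of the 6 arrays for 14 of 14 genes, and control replicate 2 lies above at least 1 SOX9 siRNA array for 14 of 14.

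The 2 control arrays differed from each other in the chaperones. Control replicate 1 had the lowest signal of the 6 arrays for 14 of 14 chaperones, against 2 of 10 ATF4-driven genes and 17.8% of all tested genes. Control replicate 2 exceeded control replicate 1 by a median of 0.49 on the log2 scale over the chaperones (0.39 to 1.06), by 0.23 over the ATF4-driven genes and by 0.14 over all tested genes. Against control replicate 1, replicate 1 of siRNA A was higher in 14 of 14 chaperones and that of siRNA B in 14 of 14, by medians of 0.52 and 0.39, where 59.1% and 36.2% of all tested genes were higher. Against control replicate 2, replicate 2 of siRNA A was higher in 10 of 14 and that of siRNA B in 12 of 14, by medians of 0.23 and 0.08, where 34.1% and 54.7% of all tested genes were higher. Without control replicate 1 the chaperone median for both siRNAs was 0.046, with 11 of 14 positive, and without control replicate 2 it was 0.59, with 14 of 14 positive. The part of the control arrays in the chaperone difference was not tested further.

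Of the 13 chaperones with a promoter window 8 hold letters that ATF6 and XBP1 are known to bind, and MANF, DNAJB9, DNAJB11, DNAJC3 and PDIA4 hold neither element searched. The promoter windows come from RefSeq on GRCh38.p14 and run from 250 bases before to 50 bases after each annotated start site. They were found for 32 of the 36 genes, not for PDIA3, DERL1, DERL3 and SLC7A11. The ER stress response element ERSE, searched on both strands as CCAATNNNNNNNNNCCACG, was in 6 of 13 chaperones with a window (46.2%): HSPA5, HSP90B1, CRELD2, PDIA6, CALR and CANX. It was also in XBP1, in 0 of 10 ATF4-driven genes, and in 25 of 27305 genes with a window (0.0916%). The related ERSE-II, searched as ATTGGNCCACG, was in the chaperones HYOU1 and SDF2L1 and in HERPUD1, among 19 genes in all (0.0696%). An ATF6 core, TGACGTGG, was in HYOU1, where it overlaps 1 of 2 ERSE-II matches, and in 253 genes in all (0.927%).

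The stretches around these matches in HSPA5, CRELD2, XBP1, HYOU1, SDF2L1 and HERPUD1 are shown because the ATF4-driven windows held none of the ERSE and ERSE-II letters, read on each gene's own strand with the matched letters in capitals. They lie 5′ of the gene as annotated, at chr9:125241376-125241424 for HSPA5 (minus strand, the match beginning 66 bases before the start site), chr22:49918539-49918587 for CRELD2 (plus strand, 80 bases) and chr22:28800588-28800636 for XBP1 (minus strand, 52 bases). HYOU1 is at chr11:119057259-119057408 (minus strand, matches at 188, 185 and 79 bases), SDF2L1 at chr22:21642099-21642139 (plus strand, 188 bases) and HERPUD1 at chr16:56931951-56932050 (plus strand, 117 bases for ERSE-II, preceded at 176 bases by the ATF4 element core given with the ATF4-driven genes). In CRELD2, HYOU1 and SDF2L1 the ERSE or ERSE-II letters lie on the opposite strand and appear reversed and complemented.
HSPA5: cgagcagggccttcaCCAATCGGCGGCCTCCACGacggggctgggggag
CRELD2: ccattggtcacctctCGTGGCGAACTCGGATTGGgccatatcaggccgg
XBP1: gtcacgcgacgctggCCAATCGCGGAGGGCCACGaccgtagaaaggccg
HYOU1: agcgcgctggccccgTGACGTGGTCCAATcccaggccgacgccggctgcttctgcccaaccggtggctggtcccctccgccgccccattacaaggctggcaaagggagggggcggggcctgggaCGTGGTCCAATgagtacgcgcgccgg
SDF2L1: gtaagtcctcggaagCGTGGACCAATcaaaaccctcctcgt
HERPUD1: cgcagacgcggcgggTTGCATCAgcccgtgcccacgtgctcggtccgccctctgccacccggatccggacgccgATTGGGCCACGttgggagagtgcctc

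The chaperones with and without these letters did not separate in their values. The 8 with ERSE or ERSE-II had a median log2 fold change of 0.34 for both siRNAs (0.05 to 0.66), and the 5 without, MANF, DNAJB9, DNAJB11, DNAJC3 and PDIA4, had 0.42 (0.25 to 0.65). A match is a description of the letters, and no binding was measured here.

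Among the sensors and factors, the signals of XBP1 and EIF2AK3 were higher and those of ATF6 and ERN1 lower in group mean with SOX9 siRNA, and none passed the test. XBP1, the factor that IRE1 splices, had 2244.4 and 2298.7 under siRNA A and 2026 and 2920.9 under siRNA B, against 1516.2 and 2123.6 under control siRNA. Replicate 1 of siRNA B was the 1 SOX9 siRNA array that lay below the higher control, and these probe sets do not separate spliced from unspliced XBP1 message. For both siRNAs XBP1 was at a log2 fold change of 0.39 (SE 0.23, limma adjusted p = 0.727). EIF2AK3 was at 0.38, 0.50 for siRNA A and 0.26 for siRNA B, with the arrays overlapping.

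ERN1, the gene of IRE1, had 255.5 and 151.8 under siRNA A and 186.7 and 144.7 under siRNA B, against 238.2 and 249.4 under control siRNA. Replicate 1 of siRNA A lay above both controls and the other 3 SOX9 siRNA arrays below both. ATF6 had 650 and 515 under siRNA A and 428.2 and 409.6 under siRNA B, against 569.4 and 642.4 under control siRNA. The siRNA B arrays lay below both controls, while the siRNA A arrays lay on either side of them. In the other ATF6 probe sets the siRNA B arrays also lay below both controls, while siRNA A varied. Its log2 fold changes there were -0.09, -0.18 and 0.21, with arrays on either side of, below and above both controls, in that order. For both siRNAs these probe sets were at -0.19, -0.28 and 0.05. The log2 fold changes for both siRNAs were -0.40 for ERN1 (SE 0.26, limma adjusted p = 0.766) and -0.29 for ATF6 (SE 0.24, limma adjusted p = 0.859), and for siRNA B they were -0.53 and -0.51. The message of a sensor is not its activity, which the arrays did not measure.

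The ERAD genes, which recognise misfolded proteins and move them to the cytosol for degradation, had a positive log2 fold change in 5 of 6 tested genes, with a median of 0.22. DERL2 and SEL1L were the 2 of them with all 4 SOX9 siRNA arrays above both controls, and with DDIT3 they made 3 of the 34 genes, against the 4.58% of all tested genes, while 0 of the 34 had all 4 below both, against 1462 of all tested genes (11.8%). ATF6, ERN1, SEL1L and EDEM1 were singled out after their values were seen. DERL2, a derlin of the ER membrane, had 307.7 and 523.3 under siRNA A and 294.9 and 685.9 under siRNA B, against 248.6 and 289.2 under control siRNA. The replicate 1 arrays were just above the higher control and the replicate 2 arrays far above it. For both siRNAs DERL2 was at a log2 fold change of 0.64 (SE 0.32, limma adjusted p = 0.673), and in a second DERL2 probe set, where all 4 arrays also lay above both controls, it was 0.41.

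SEL1L, the adaptor of the ubiquitin ligase that SYVN1 encodes, had 1050.9 and 1019.1 under siRNA A and 915.1 and 1164.2 under siRNA B, against 805.6 and 826.6 under control siRNA. The controls lay close together, and the log2 fold change was 0.34 for siRNA A and 0.33 for siRNA B (0.34 for both, SE 0.23, limma adjusted p = 0.803). EDEM1, a lectin that takes misfolded glycoproteins out of the folding cycle, had 259.5 and 177.7 under siRNA A and 350.8 and 472.7 under siRNA B, against 237.8 and 314 under control siRNA. Both siRNA B arrays were above both controls, and the siRNA A arrays were below both siRNA B arrays. The difference of siRNA A minus siRNA B was -0.87 and did not pass (limma adjusted p = 0.359, and 0.0529 with the replicate block). Median centring added to the block, an alternative chosen after the data were seen, gave -0.84, which passed (limma adjusted p = 0.0278). That setting called 600 of the 12431 tested genes between the siRNAs, against 12 in the first fit. HERPUD1, a membrane protein of the ERAD complex, was at 0.36, DERL1 at 0.05 and DERL3 at -0.18, the last with signals of 13.0 to 37.8 near the filter level.

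**Figure D3:**
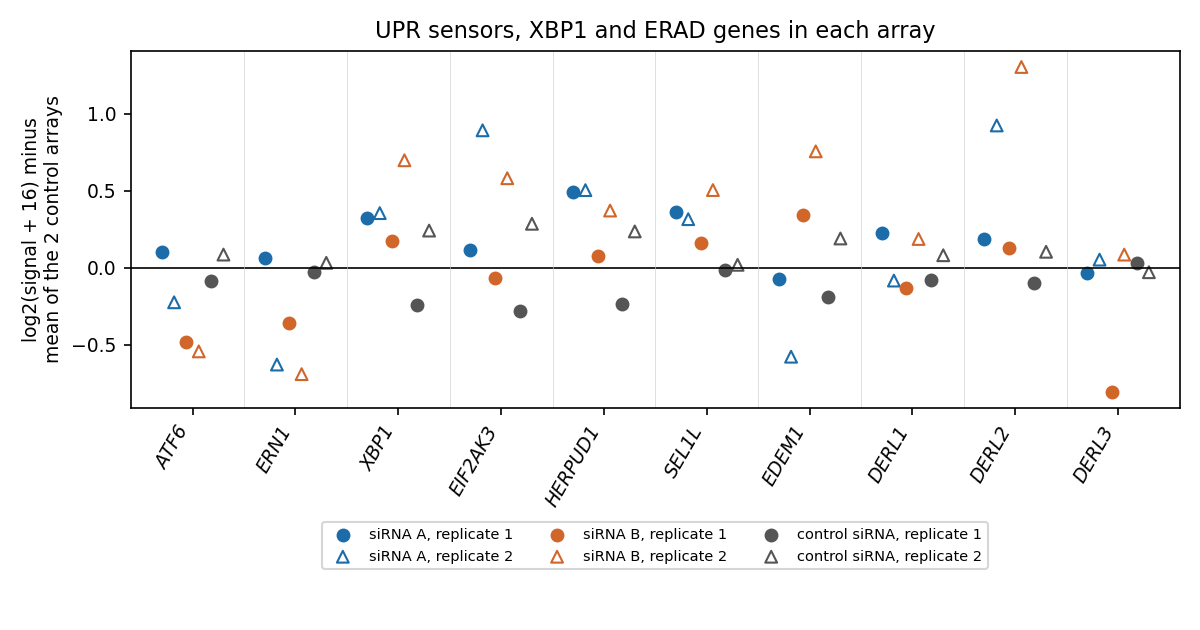
The sensors, XBP1 and the ERAD genes in each array, drawn as log2(signal + 16) minus the mean of the 2 control arrays, with the same colours and symbols as for the chaperones (siRNA A blue, siRNA B orange, control siRNA grey). SEL1L and DERL2 have all 4 SOX9 siRNA arrays above both controls, and ATF6 and ERN1 have both siRNA B arrays below both controls.

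ATF4 and the genes it drives showed no common direction: 4 of 10 tested genes had a positive log2 fold change for both siRNAs, 4 of 10 for siRNA A and 4 of 10 for siRNA B, with medians of -0.04, -0.04 and -0.11. ATF4 and ATF3 had lower group means with SOX9 siRNA and DDIT3 a higher one, and none passed the test. Without replicate 1 of siRNA B, 7 of 10 were positive for both siRNAs.

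ATF4, the transcription factor of the integrated stress response, had 6499.7 and 4148.7 under siRNA A and 5221.4 and 3969.6 under siRNA B, against 5651.5 and 7041.5 under control siRNA. Replicate 1 of siRNA A lay between the controls and the other 3 SOX9 siRNA arrays below both. Its fold change was -0.37 on the log2 scale (SE 0.20, limma adjusted p = 0.689), and since ATF4 is controlled largely at translation, its message is not a measure of its protein. ATF3, a factor of the same family that ATF4 induces, had 232.5 and 113.4 under siRNA A and 167.2 and 110.8 under siRNA B, against 197.6 and 200.8 under control siRNA. Here too replicate 1 of siRNA A was the 1 SOX9 siRNA array not below both controls. Its log2 fold change was -0.38 (SE 0.28, limma adjusted p = 0.822).

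DDIT3, the factor CHOP, which promotes cell death in prolonged ER stress, had 330.9 and 453.8 under siRNA A and 458.1 and 529 under siRNA B, against 309.3 and 321.4 under control siRNA. All 4 SOX9 siRNA arrays lay above both controls, replicate 1 of siRNA A by a small margin. The log2 fold change was 0.45 (SE 0.25, limma adjusted p = 0.705), 0.29 for siRNA A and 0.62 for siRNA B. TRIB3, a pseudokinase that CHOP and ATF4 induce, had 400.1 and 386.3 under siRNA A and 371.6 and 584.3 under siRNA B, against 467.2 and 573.3 under control siRNA. Of the SOX9 siRNA arrays 3 lay below both controls and replicate 2 of siRNA B above both, with a log2 fold change of -0.26 (SE 0.26, limma adjusted p = 0.882).

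The genes of amino acid supply were spread around 0. ASNS, asparagine synthetase, had 1373.4 and 1515.8 under siRNA A and 1034 and 1504 under siRNA B, against 1267.8 and 1486.4 under control siRNA, so the groups overlapped, and the log2 fold change was -0.03 (SE 0.24, limma adjusted p = 0.988). PSAT1, an enzyme of serine synthesis singled out after its values were seen, had 717.4 and 776.7 under siRNA A and 1012.8 and 2982.8 under siRNA B, against 1029.9 and 1342.6 under control siRNA. The siRNA A arrays were below both controls, and the siRNA B arrays were 1 below and 1 far above them. PSAT1 was thus at -0.64 for siRNA A and 0.56 for siRNA B, and siRNA A minus siRNA B was -1.20 (limma adjusted p = 0.311, and 0.00127 with the replicate block). The value turned on 1 array, replicate 2 of siRNA B: without it siRNA A minus siRNA B was -0.43 and siRNA B minus control was -0.21. Without replicate 1 of siRNA B they were -1.98 and 1.33. Either omission leaves siRNA B with 1 array. In the fit over all probe sets both PSAT1 probe sets gave like values, the one representing the gene -1.20 and the other -1.08, and neither passed (limma adjusted p = 0.725 and 0.686).

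PHGDH, the first enzyme of serine synthesis, was at 0.14, and SLC7A11, the cystine transporter, at 0.09, with 0.40 for siRNA A and -0.21 for siRNA B. PPP1R15A, the phosphatase subunit GADD34 that reverses eIF2-alpha phosphorylation, was at 0.19, and a second probe set of it at -0.25. SESN2, a sensor of leucine that ATF4 induces, was at -0.05. None of these 4 passed, with limma adjusted p between 0.916 and 0.984. Of the 5 other probe sets of ATF4-driven genes above the filter, 2 had the same sign as the one representing the gene.

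**Figure D4:**
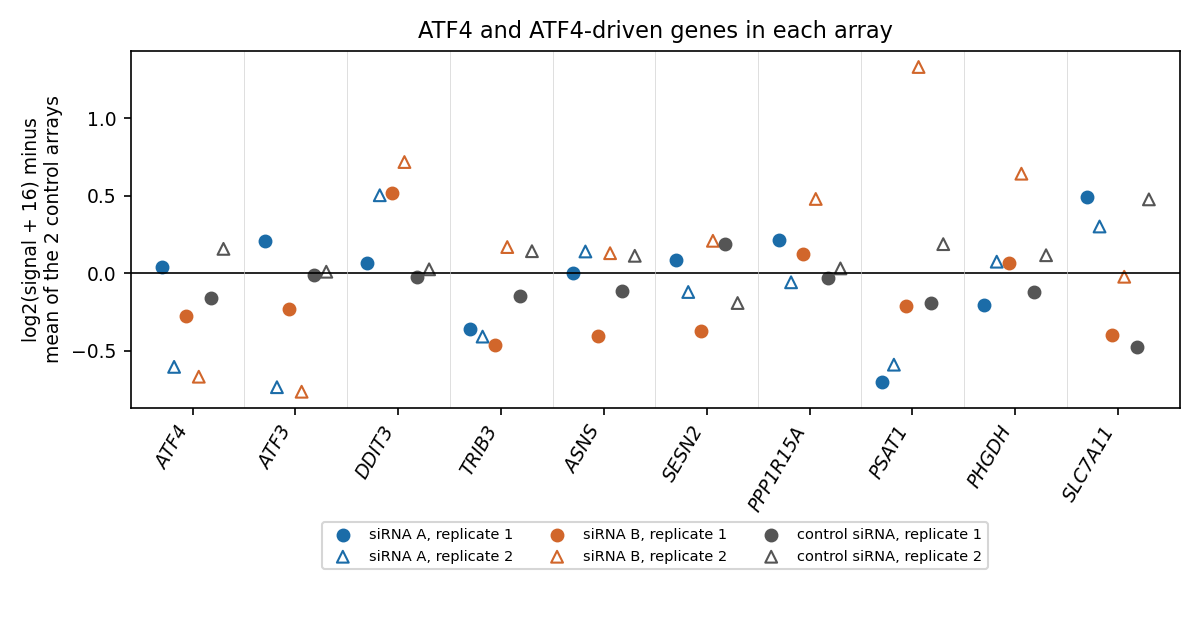
ATF4 and the ATF4-driven genes in each array, drawn as log2(signal + 16) minus the mean of the 2 control arrays, with siRNA A in blue, siRNA B in orange and control siRNA in grey, filled circles for replicate 1 and open triangles for replicate 2. DDIT3 has all 4 SOX9 siRNA arrays above both controls, PSAT1 has both siRNA A arrays below both, and for ATF4 and ATF3 the replicate 2 arrays of both siRNAs are the lowest.

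The core of the C/EBP-ATF response element, through which ATF4 acts, was searched on both strands as TGATGNAA. It was in 3 of 10 ATF4-driven genes with a window (30.0%), ATF3, CHAC1 and ASNS, in HERPUD1 among the ERAD genes, in 0 of 13 chaperones, and in 1217 of 27305 genes (4.46%). These 3 stretches are shown with the match in capitals, since they are the counterpart of the chaperone elements above. They lie at chr1:212565201-212565238 for ATF3 (plus strand, the match beginning 191 bases before the start site), at chr15:40953247-40953284 for CHAC1 (plus strand, 209 bases) and at chr7:97872454-97872491 for ASNS (minus strand, 68 bases). The ATF3 and CHAC1 stretches are 5′ of the gene, and that of ASNS lies within the annotated span of the gene, 5′ of a further start site. In CHAC1 the letters lie on the opposite strand.
ATF3: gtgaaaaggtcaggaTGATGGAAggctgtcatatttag
CHAC1: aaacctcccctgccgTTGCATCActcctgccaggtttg
ASNS: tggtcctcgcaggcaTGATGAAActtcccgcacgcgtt
ATF3 and ASNS, the 2 of these that were tested, were at -0.38 and -0.03 for both siRNAs, and CHAC1 was below the filter.

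The mean level of the chaperones relative to the control mean was 0.30 and 0.52 under siRNA A and 0.14 and 0.46 under siRNA B, against -0.29 and 0.29 under control siRNA. The replicate 1 array of siRNA B lay between the controls. That of the ATF4-driven genes was -0.02 and -0.15 under siRNA A and -0.16 and 0.22 under siRNA B, against -0.11 and 0.11 under control siRNA. The SOX9 siRNA arrays thus lay on both sides of the controls. Subtracting the ATF4-driven level from the chaperone level within each array gave 0.31 and 0.67 under siRNA A and 0.30 and 0.24 under siRNA B, against -0.19 and 0.19 under control siRNA. On this difference all 4 SOX9 siRNA arrays were above both controls, the closest by a margin smaller than the distance between the controls. As medians of fold changes, the chaperones exceeded the ATF4-driven genes by 0.38 for both siRNAs, and by 0.24 without control replicate 1. No test was made of either difference, since the genes were chosen by name with earlier results known.

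**Figure D5:**
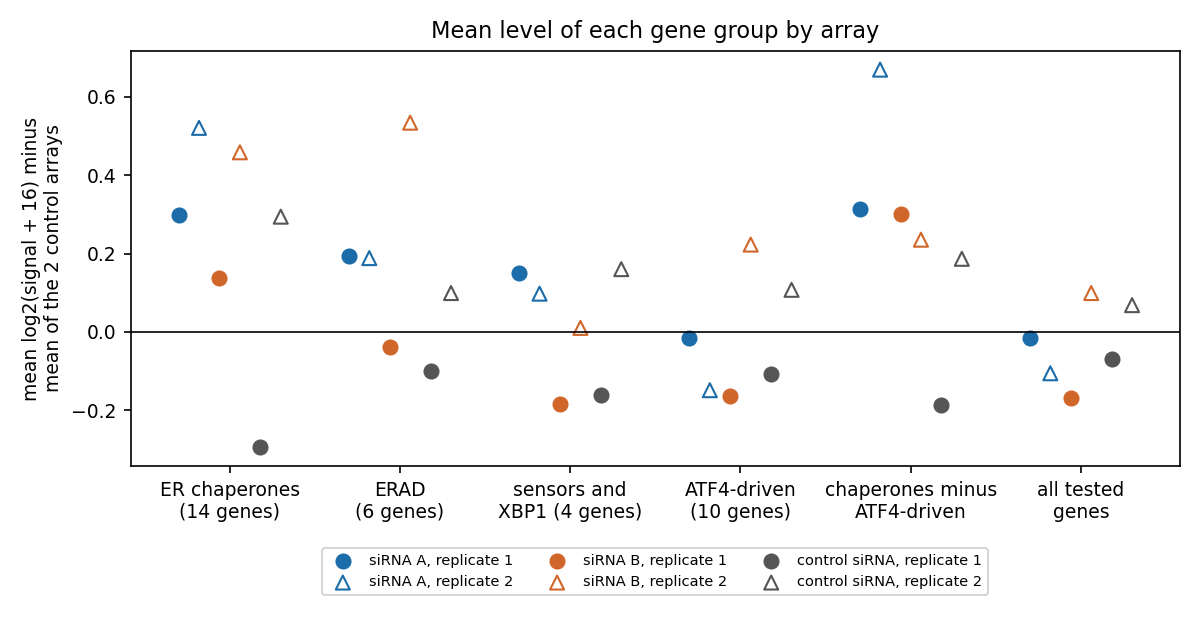
Mean log2(signal + 16) of each group of genes in each array, minus the mean of the 2 control arrays, with siRNA A in blue, siRNA B in orange and control siRNA in grey, filled circles for replicate 1 and open triangles for replicate 2. For chaperones minus ATF4-driven genes the 4 SOX9 siRNA arrays lie from 0.24 to 0.67 and the controls at -0.19 and 0.19, while the mean of all tested genes lies between -0.17 and 0.10 in every array.

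Of 33 further tested genes of the ER stress response, translocation and secretion, 25 had a positive log2 fold change for both siRNAs (median 0.16). That was 75.8%, against 44.9% of all tested genes, and 0 of the 33 were called (0.0402% of all genes). Those with the smallest p were SELENOS, an ERAD membrane protein, at 0.58, SEC24D, a coat protein of ER export vesicles, at 0.47, TRAM1, a translocon protein, at 0.43 and P4HB, a disulphide isomerase, at 0.30, with limma adjusted p from 0.677 to 0.715. The mean level of these 33 genes was 0.08 and 0.12 under siRNA A and -0.05 and 0.43 under siRNA B, against -0.10 and 0.10 under control siRNA. The siRNA arrays were not all above the controls, and replicate 2 of siRNA B was the highest.

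Of 32 further tested genes of the integrated stress response and amino acid supply, 10 had a positive log2 fold change and 22 a negative one (median -0.11). That was 31.2% positive, against 44.9% of all tested genes, and 0 of the 32 were called (0.0402% of all genes). The smallest p belonged to SLC7A1, a transporter of cationic amino acids, at -0.69, PSPH, the last enzyme of serine synthesis, at -0.57, MTHFD2, a mitochondrial folate enzyme, at -0.55, and ATF5, a factor of the ATF4 family, at 0.89, with limma adjusted p from 0.517 to 0.585. SLC7A1 had 1757.2 and 1407.7 under siRNA A and 947.8 and 590.6 under siRNA B, against 1660.1 and 1860.2 under control siRNA. Both siRNA B arrays were below the other 4, and it was at -0.16 for siRNA A and -1.21 for siRNA B, and siRNA A minus siRNA B was 1.06 (limma adjusted p = 0.216, and 0.00672 with the replicate block). ATF5 had 123.7 and 244.1 under siRNA A and 163.4 and 505.2 under siRNA B, against 99.9 and 130.9 under control siRNA. Replicate 1 of siRNA A was within the controls and the other 3 above both, and with the replicate block, which called 3.53% of all genes, ATF5 passed (limma adjusted p = 0.00774). Its value depended on the probe set: as the median over its 4 probe sets it was 0.31 for both siRNAs (limma adjusted p = 0.907) and 0.01 for siRNA A. GDF15, a secreted stress cytokine singled out after its values were seen, passed with the block as lower, at -1.05 (limma adjusted p = 0.00115, and 0.689 without the block). For siRNA B alone the block called 5 of the 32 (5.94% of all genes), SLC7A1, MTHFD2 and GDF15 as lower and ATF5 and CTH as higher, and for siRNA A it called 0. Of the 32 genes 7 had all 4 SOX9 siRNA arrays below both controls, against the 11.8% of all tested genes: SLC7A5, SLC38A2, SHMT2, MTHFD2, PSPH, XPOT and STC2. GDF15 was not among these 7.

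Heat shock genes, which answer unfolded proteins outside the ER, had a positive log2 fold change in 4 of 10 tested genes (median -0.10). That was 40%, against 44.9% of all tested genes, and 0 of the 10 were called (0.0402% of all genes). The smallest p belonged to HSP90AB1, a cytosolic Hsp90, at -0.24, HSF1, the heat shock factor, at -0.30, HSPE1, the co-chaperonin of mitochondria, at -0.24 and BAG3, a co-chaperone of cytosolic Hsp70, at -0.27.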

How the data were processed

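RNA of 6 VCaP samples, 3 groups of 2, was measured on Affymetrix arrays. Per the submitters' processing notes the deposited intensity values, 1 linear signal per probe set, come from MAS5. Neither a version nor a scaling target is stated in these sources, and the authors' scaling was kept. Of 54675 probe sets, 62 controls were left out, and genes were named by the array's annotation table, with 41091 probe sets of 1 symbol. The test was that of limma 3.58.1, run in R 4.3.3, on log2(signal + 16), with 1 mean per group, eBayes with an intensity trend, 3 residual degrees of freedom and Benjamini-Hochberg adjustment over all 12431 genes whose mean reached 5.25 on the log2 scale, the median over probe sets. It was checked on simulated data for both siRNAs against control. The simulated arrays varied independently of each other, and a small share of genes was changed alike in all SOX9 siRNA arrays. There the test called 2.28% of genes given a 1.5-fold change, 32.9% at 2-fold and 99.7% at 4-fold. Of genes given no change it called 0.0409%. The largest fold for both siRNAs among the tested genes of the 4 groups was 1.58, that of HYOU1. Changes of about the size seen in these groups thus mostly went uncalled in that simulation. Whether its rates hold for the real arrays, which did not all vary independently, was not tested. Same-numbered arrays of siRNA A and siRNA B deviated together (correlation of 0.63), and those of each siRNA and control did so only weakly (0.18). The replicate number was taken to pair all of them, from the data, since the labels name no shared culture. For the comparisons with control the block thus rests on the weaker correlation. SOX9 signals were also lower in replicate 2 than in replicate 1 of each group, and what same-numbered arrays share was not tested. With the replicate block limma set every gene's spread by the trend, which can make those p-values too small. Gene positions and promoter windows are from RefSeq, GRCh38.p14.

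The genes, the lists and the tests were chosen with earlier results of these data known. Values in every array were given for HSPA5, HSP90B1, XBP1, ATF4, DDIT3 and ASNS, and for the smallest unadjusted p, up to 6 chaperones, sensors or ERAD genes and up to 4 ATF4-driven genes; each further list gave up to 4 genes by the same p, and any called gene. The alternatives were other offsets, normalizations, filters, probe set rules and fits, the block, and arrays left out.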

Additional observations from a re-analysis of the deposited data

Results flagged for a closer look

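SPCS3, a subunit of the signal peptidase, was the 1 gene of the lists described that limma called, in the comparison of siRNA A with siRNA B. Its signal was 922.5 and 1132.9 under siRNA A and 321.3 and 312.9 under siRNA B, against 610.1 and 912.6 under control siRNA, so both siRNA B arrays lay below both controls and both siRNA A arrays above both. The log2 difference of siRNA A minus siRNA B was 1.64 (limma adjusted p = 0.0481, and 3.61e-06 with the replicate block). It was not called with an offset of 1, quantile normalization, median centring, no filter, single probe sets or no trend, or without either siRNA A replicate or replicate 2 of siRNA B. Taken as the median over the gene's 3 probe sets it was -0.27 (limma adjusted p = 0.975).

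For 4 further genes of the ER stress list both siRNA A arrays lay on one side of both controls and both siRNA B arrays on the other. With SPCS3 these were 5 of the 33 tested genes of that list (15.2%), and 380 of all 12431 tested genes had that position (3.06%). ERO1A, the oxidase that recharges disulphide isomerases, had a log2 difference of siRNA A minus siRNA B of -0.70, FKBP14, a collagen-folding isomerase, of -0.59, HSPA13, an Hsp70 of the microsomes, of 0.43 and KDELR3, a receptor that returns ER proteins from the Golgi, of -0.92. These were picked by that position alone, and no test was made of the position. In limma the differences had adjusted p from 0.311 to 0.734, and with the replicate block that of KDELR3 had 0.0261.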

How the results depend on the processing

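Of 678 values of the 34 genes for both siRNAs over 20 alternatives, 19 of them planned, 30 had another sign than in the first fit, none of these called, and 4 were called: DERL2 without replicate 1 of both siRNAs (1.11, against 0.16 without replicate 2 of both), and MANF (0.69), HYOU1 (0.70) and DERL2 (0.68) with the replicate block and median centring, an alternative added after the data were seen. The genes called among the 34 were then 1 and 3 in place of 0; with the block and centring they were 3 for siRNA A, 1 for siRNA B and 2 between the siRNAs (PSAT1 and EDEM1), with the block alone 1 between the siRNAs (PSAT1), and with 1 array left out 0 to 3 for siRNA B and 0 to 1 between the siRNAs. The chaperone median ran from 0.046 (without control replicate 1) to 0.59 (without control replicate 2) with 1 array left out, and the chaperone minus ATF4-driven median from 0.24 to 0.48 over the alternatives. The ATF4-driven genes with a positive value were 7 of 10 without replicate 1 of both siRNAs, and 4 to 7 with 1 array left out, the 7 being without replicate 1 of siRNA B. Lone arrays were assumed to vary like the others. The gene totals depended on most settings. For both siRNAs, 5 genes became 3 and 8 with offsets of 1 and 64, 0 with quantile normalization, median centring or no filter, 9 with a stricter filter, 1 over single probe sets, 1 without the trend, 0 with the siRNA arrays as 1 group, 0 and 586 without replicate 2 and replicate 1 of both siRNAs, and 0 to 62 with 1 array left out. For siRNA A, 2 became 0 with quantile normalization or no filter, 1 with centring, 1 with the median over probe sets and 0 to 18 with 1 array left out. For siRNA B, 23 became 0 with quantile normalization, centring or no filter, 14 without the trend, 8 with the compared groups alone and 0 to 1002 with 1 array left out. Between the siRNAs, 12 became 7 with the offset of 1, 0 with quantile normalization, centring or no filter, 4 with the median over probe sets, 6 without the trend, 56 with the compared groups alone and 0 to 291 with 1 array left out. With the replicate block the totals were 439, 223, 739 and 361, and with centring added 567, 211, 1094 and 600. The block pairs same-numbered arrays, and without centring it changed the call of no other member than PSAT1. Wherever a total moved, the cause was not tested. Leaving out a replicate of both siRNAs was not run for single siRNAs, which it leaves with 1 array each.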
